A study of Homo sapiens with 3 samples.

Results

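The genes described here encode metalloproteases that act outside the cell or at its surface, together with their tissue inhibitors. They were taken as a list of 39 protein-coding genes out of 19974 on chromosomes 1 to 22 and X: 20 matrix metalloproteinases (MMP), 3 tissue inhibitors of metalloproteinases (TIMP), 8 ADAM genes, and 8 ADAMTS or ADAMTS-like genes. A gene was given every peak that overlapped its annotated span, or the 1 kb on either side of it, by at least 1 bp. All 39 were found in the gene annotation. The values come from HCC1599, an established cell line of triple-negative breast cancer whose labels describe it as positive for a MARCO transcript called MARCO-TST. Chromatin immunoprecipitation and sequencing was done with an antibody to H3K27ac, with an antibody to H3K4me3, and without antibody as an input, and no treatment is named for any of these 3 samples. With 1 library per mark from 1 cell line, no value has a replicate check and no test between conditions is possible. Intervals cover counting error only.

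H3K4me3 is a histone mark of promoters, and H3K27ac marks active promoters and enhancers. Matrix metalloproteinases are zinc enzymes made as inactive precursors; they cut collagens, proteoglycans and other matrix proteins, and TIMPs block them. ADAM proteins sit in the membrane and release the outer parts of receptors, ligands and adhesion molecules, while ADAMTS proteins are secreted and cut proteoglycans and other matrix proteins. In breast carcinomas many of the secreted enzymes are known to come from fibroblasts and leukocytes of the stroma rather than from the carcinoma cells, and a cell line holds no stroma.

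The authors deposited 72895 H3K27ac peaks and 32045 H3K4me3 peaks, of which 72894 and 32043 lay on the chromosomes used. Each peak carries a score without a stated unit, from 30 to 3233, and many H3K4me3 peaks share the value 3100, so scores rank peaks within 1 list only. Read depth is unknown here, and a gene without a peak is a gene where none was called. The cell type label was checked against markers. All 6 epithelial genes (EPCAM, CDH1, KRT8, KRT18, KRT19 and CLDN4) had both marks, each with an H3K4me3 score of 3100. Of all protein-coding genes 68.2% had both. Without peaks that also touched the 1 kb around an end of another protein-coding gene, 3 of these 6 had both. KRT18, KRT19 and CLDN4 then had neither. By contrast, 0 of 6 fibroblast, 0 of 5 macrophage, 0 of 4 endothelial and 0 of 4 lymphocyte genes had both with all peaks. Single marks did occur among these non-epithelial genes: H3K27ac at 4 fibroblast, 1 macrophage and 2 endothelial genes, and H3K4me3 at 1 gene of each of the 4 types. The highest scores were 1591 for H3K27ac in VWF and, for H3K4me3, 3100 at CD79A, in a peak shared with a neighbouring gene, and 3021 at KDR.

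A RefSeq table of GRCh38.p14 gave a promoter sequence for 19 of the 39 genes, and from it the start and strand of each. The sequences that follow are the 250 bases before the start, read 5′ to 3′ on the strand of the gene. The first group holds the 5 genes of the chromosome 11 cluster with a sequence, because only MMP7 among them had a mark at its start. Capitals in this group show AP-1 motifs (TGANTCA) and TATA boxes (TATAAA) on either strand. The windows are chr11:102530748-102530997 for MMP7, chr11:102780629-102780878 for MMP10, chr11:102625333-102625582 for MMP20, chr11:102724955-102725204 for MMP8 and chr11:102705770-102706019 for MMP27, all on the minus strand.
MMP7: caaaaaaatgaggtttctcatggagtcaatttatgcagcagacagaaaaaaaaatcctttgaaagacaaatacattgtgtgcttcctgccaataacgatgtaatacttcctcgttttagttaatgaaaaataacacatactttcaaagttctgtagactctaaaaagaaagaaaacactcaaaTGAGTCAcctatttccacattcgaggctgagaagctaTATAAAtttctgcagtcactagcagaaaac
MMP10: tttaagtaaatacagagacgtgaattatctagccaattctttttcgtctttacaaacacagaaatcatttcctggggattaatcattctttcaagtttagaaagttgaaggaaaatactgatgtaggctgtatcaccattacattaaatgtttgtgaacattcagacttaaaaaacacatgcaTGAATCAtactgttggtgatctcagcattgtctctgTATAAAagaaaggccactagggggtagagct
MMP20: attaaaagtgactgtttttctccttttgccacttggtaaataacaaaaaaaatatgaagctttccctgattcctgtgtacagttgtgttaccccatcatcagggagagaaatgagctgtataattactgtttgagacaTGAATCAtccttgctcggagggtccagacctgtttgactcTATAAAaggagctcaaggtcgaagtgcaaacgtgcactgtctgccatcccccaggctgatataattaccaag
MMP8: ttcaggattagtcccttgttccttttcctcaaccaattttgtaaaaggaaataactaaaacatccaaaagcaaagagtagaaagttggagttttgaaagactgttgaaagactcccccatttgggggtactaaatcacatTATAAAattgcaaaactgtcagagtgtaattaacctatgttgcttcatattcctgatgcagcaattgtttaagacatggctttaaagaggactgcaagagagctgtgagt
MMP27: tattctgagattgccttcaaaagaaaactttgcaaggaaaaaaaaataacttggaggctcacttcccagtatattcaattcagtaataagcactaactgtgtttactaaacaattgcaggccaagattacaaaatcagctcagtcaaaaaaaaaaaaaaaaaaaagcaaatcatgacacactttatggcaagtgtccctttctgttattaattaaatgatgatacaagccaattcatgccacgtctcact
The MMP7 and MMP10 windows share a layout. In each an AP-1 motif begins at -67 from the start, with a TATA box from -30 in MMP7 and from -31 in MMP10. MMP20 has the same pair of motifs further out, at -112 and -72, MMP8 has a TATA box at -110 and no AP-1 motif, and MMP27 has neither motif in this window. MMP7 had peaks of both marks over its start, and MMP10, MMP20, MMP8 and MMP27 had no peak within 1 kb of theirs.

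The second group shows GC-rich promoters of 1 gene with both marks at its start, ADAM17, and 2 genes with neither mark there, TIMP3 and ADAM8. Capitals show GC boxes (GGGCGG), and no AP-1 motif or TATA box of the letters above was found in these 3 windows. The windows are chr2:9555831-9556080 on the minus strand for ADAM17, chr22:32801455-32801704 on the plus strand for TIMP3 and chr10:133276869-133277118 on the minus strand for ADAM8.
ADAM17: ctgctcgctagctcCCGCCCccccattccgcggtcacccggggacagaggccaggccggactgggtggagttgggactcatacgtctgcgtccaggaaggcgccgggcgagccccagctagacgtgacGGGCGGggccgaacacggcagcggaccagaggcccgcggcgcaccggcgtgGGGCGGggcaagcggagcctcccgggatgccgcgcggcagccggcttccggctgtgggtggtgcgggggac
TIMP3: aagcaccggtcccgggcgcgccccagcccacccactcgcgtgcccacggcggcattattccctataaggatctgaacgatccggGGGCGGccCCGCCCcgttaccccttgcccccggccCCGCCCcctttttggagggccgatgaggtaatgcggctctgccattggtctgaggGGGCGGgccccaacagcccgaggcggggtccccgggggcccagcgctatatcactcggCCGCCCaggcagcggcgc
ADAM8: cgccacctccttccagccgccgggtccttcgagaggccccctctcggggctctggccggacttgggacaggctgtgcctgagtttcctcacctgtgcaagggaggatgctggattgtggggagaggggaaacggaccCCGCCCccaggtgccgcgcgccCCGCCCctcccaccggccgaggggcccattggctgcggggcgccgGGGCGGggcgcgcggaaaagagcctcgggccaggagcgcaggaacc
The full windows of 300 bases hold 36 CpG in ADAM17, 31 in TIMP3 and 29 in ADAM8, against 4 in MMP7 and 2 each in MMP8, MMP10 and MMP27. GC boxes numbered 3 in ADAM17, 5 in TIMP3 and 3 in ADAM8.

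Across the 39 genes H3K27ac was the less frequent mark. It was called at 23 genes (59.0%), against 73.4% of all protein-coding genes, and H3K4me3 at 28 (71.8%), against 75.5%. Both marks were present at 21 genes (53.8%), where 68.2% of all genes had both. H3K27ac without H3K4me3 occurred at 2 genes, MMP13 and ADAM28, close to the 5.17% of all genes. H3K4me3 without H3K27ac occurred at 7 (17.9%), against 7.33%: MMP2, MMP9, MMP14, MMP28, TIMP4, ADAMTS5 and ADAMTS15. With peaks scoring at least 100 it occurred at 8 members. At that score H3K4me3 alone was more frequent over all genes as well, where 73.2% had H3K4me3 and 58.1% had both marks. Neither mark was called at 9 genes (23.1%), against 19.3%: MMP1, MMP3, MMP8, MMP10, MMP12, MMP19, MMP27, TIMP3 and ADAMTS4. That count was 14 with peaks scoring at least 100, where 24.4% of all genes had neither. The median gene of the list had 0.603% of its span under H3K27ac, against 3.74% over all protein-coding genes, and 2.89% under H3K4me3, against 4.69%. Genes without a peak enter these medians with no cover, so the medians partly repeat the counts of marked genes. The means lay closer together for H3K27ac, at 9.94% for the list and 11.61% for all protein-coding genes. For H3K4me3 they were 8.92% and 13.03%.

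**Figure D1:**
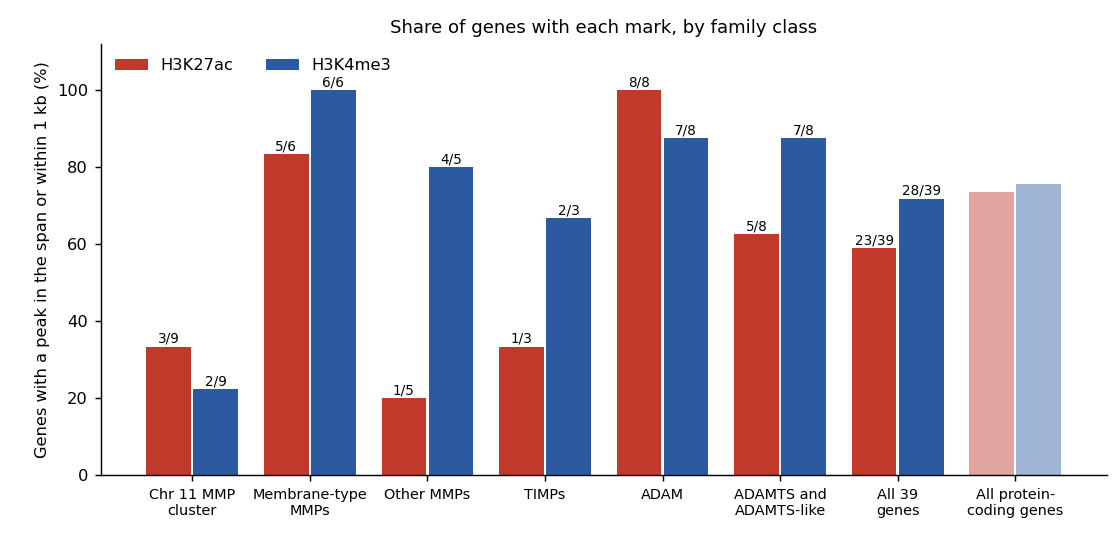
Share of genes (percent) with an H3K27ac or H3K4me3 peak in the span or within 1 kb, for the 6 family classes, all 39 genes and all protein-coding genes. Bars are labelled with genes marked over genes in the class. The chromosome 11 cluster has 3 and 2 of 9 genes marked, the ADAM class 8 and 7 of 8.

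The family classes differed in these counts. In the chromosome 11 MMP cluster 3 of 9 genes had H3K27ac and 2 of 9 had H3K4me3. Membrane-type MMPs had H3K27ac at 5 of 6 and H3K4me3 at 6 of 6, and the other MMPs at 1 and 4 of 5. TIMPs had H3K27ac at 1 of 3 and H3K4me3 at 2 of 3. ADAM genes had H3K27ac at 8 of 8 and H3K4me3 at 7 of 8, and ADAMTS and ADAMTS-like genes at 5 and 7 of 8. Over all protein-coding genes the shares were 73.4% for H3K27ac and 75.5% for H3K4me3. Gene length also differed: cluster genes spanned 7809 to 48501 bp and ADAM genes 11460 to 376087 bp. The class counts were not adjusted for length. The classes are small, and the counts have no test.

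Length, strength and neighbours each bear on such counts. Long genes hold a peak more easily: 7 of 7 members spanning 100 kb or more had each mark, where 93.3% of all genes of that length had H3K27ac and 92.1% had H3K4me3. Of 13 members spanning 20 to 100 kb, 8 had H3K27ac (all genes 83.2%) and 11 had H3K4me3 (all genes 84.1%). Of 19 members under 20 kb, 8 had H3K27ac (all genes 57.5%) and 10 had H3K4me3 (all genes 62.0%). With peaks scoring at least 100, H3K27ac remained at 17 members (all genes 60.5%) and H3K4me3 at 24 (all genes 73.2%). Peaks of any score that also touched the 1 kb around an end of another protein-coding gene were next left out. H3K27ac then remained at 21 members (53.8%), against 63.4% of all genes. H3K4me3 remained at 25 (64.1%), against 59.4%. Its share of members was thus above that of all genes, where with all peaks it was below. Genes that lost marks in this way were ADAM15 and ADAMTSL4 for both marks and ADAMTS5 for H3K4me3. Ends of noncoding genes did not count here. Such ends lay within 1 kb of H3K4me3 peaks at MMP9, MMP11, MMP16, MMP25, ADAM15, ADAM19, ADAMTS9, ADAMTS16 and ADAMTSL4. The H3K4me3 peak of TIMP4 overlapped SYN2.

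At the annotated start, known for 19 members, 9 had H3K27ac within 1 kb (47.4%), against 60.0% of 15812 protein-coding genes, and 11 had H3K4me3 (57.9%), against 70.2%. Neither mark was there in 8 members (42.1%), against 27.9%. Those 8 were MMP8, MMP10, MMP20, MMP27, MMP24, TIMP3, ADAM8 and ADAMTS12. MMP20, MMP24, ADAM8 and ADAMTS12 nevertheless had peaks of both marks elsewhere in or beside the gene, which a count over the span alone does not show.

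**Figure D2:**
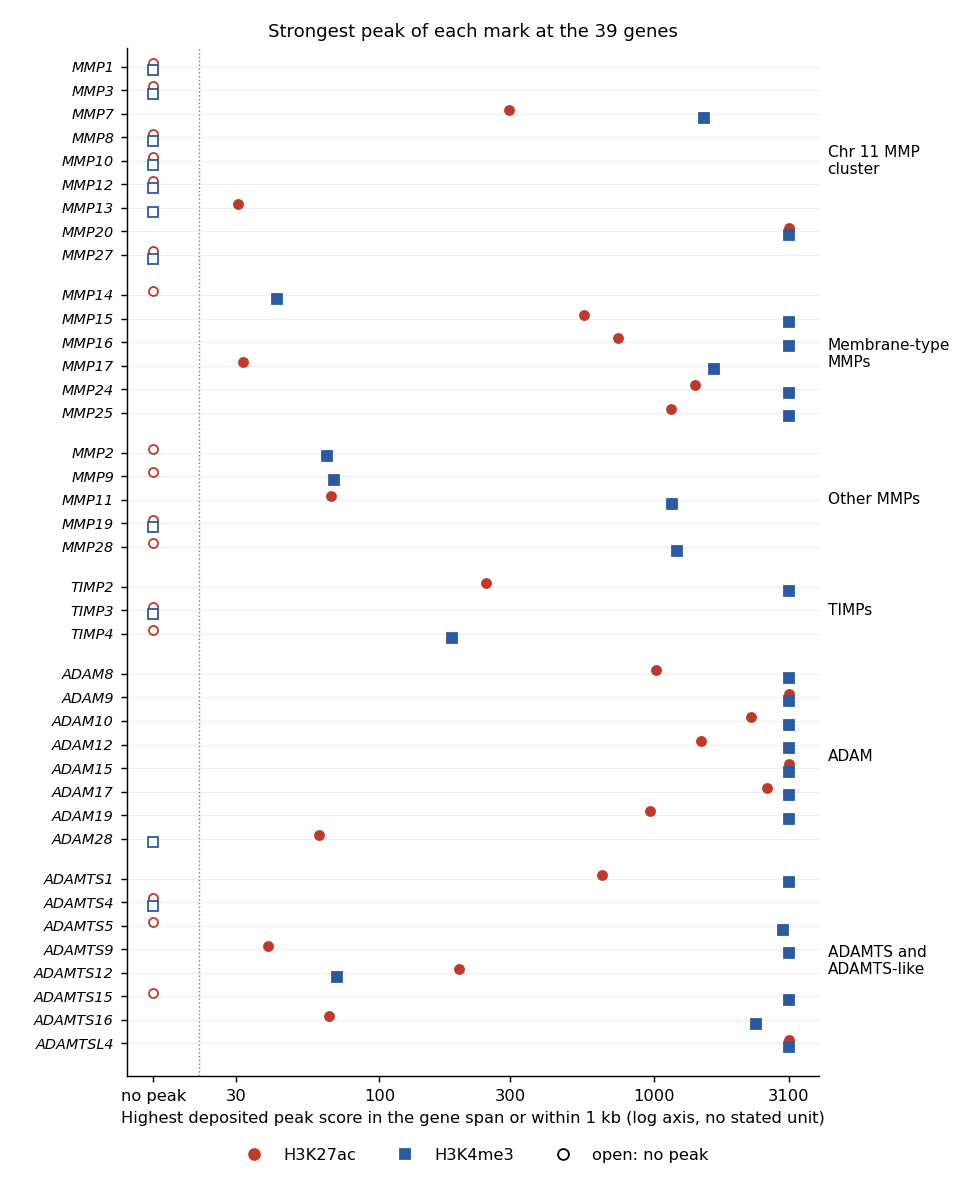
Highest deposited score of an H3K27ac peak (red circles) and an H3K4me3 peak (blue squares) at each of the 39 genes, on a log axis without a stated unit, with open symbols where no peak was called. Most H3K4me3 squares of the ADAM class lie at 3100, and 6 genes of the chromosome 11 cluster have open symbols for both marks.

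The chromosome 11 cluster holds secreted enzymes side by side, from MMP7 to MMP13 over 435 kb (102520508 to 102955732). H3K27ac covered 9.68% of this length and H3K4me3 4.79%. Most of the peaks lay toward the MMP7 end, with bare stretches between them, and marks were nearly absent from the rest. MMP7 encodes matrilysin, an enzyme that epithelial cells themselves make. Its span (102520508 to 102530747) carried H3K27ac peaks of 1799 bp (score 298) over the start and 1506 bp (score 103) just downstream, and 1 H3K4me3 peak of 3999 bp (score 1520.2) that overlapped both. H3K27ac covered 23.4% of the gene and H3K4me3 33.8%.

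MMP20, which encodes the enamel protease enamelysin, carried the strongest and widest H3K27ac peak of the 20 MMP genes, although no peak lay within 1 kb of its own start (102625332). An H3K27ac peak of 13113 bp at 102601418 to 102614530 scored 3100 and an adjoining one of 3997 bp at 102597151 to 102601147 scored 2716. Beneath the wider of them lay H3K4me3 peaks of 8200 bp (score 3100) and 2737 bp (score 649). The nearest edge of this block was 10802 bp downstream of the start for H3K27ac and 11015 bp for H3K4me3. No gene other than MMP20 is annotated there. Another 2 H3K27ac peaks in the gene were weak, with scores of 39.6 and 46.8. In all H3K27ac covered 38.2% of the MMP20 span and H3K4me3 covered 22.6%.

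A second run of strong peaks lay between MMP7 and MMP20, where no gene of any kind is annotated. It began 14.6 kb from the MMP7 start, on the side away from the gene, and held 4 H3K27ac peaks, with scores of 417, 3100, 2845 and 2561 and widths of 2991, 7853, 2936 and 4020 bp. It also held 2 H3K4me3 peaks, of 4902 bp (score 1762) and 1021 bp (score 30.7). This run lay outside the windows of both genes and enters no count of members.

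Beyond MMP20 the cluster was almost empty. From 102614318 to its end, 341 kb with 7 of its genes, there was no H3K4me3 peak, and no peak of either mark scored 100 or more over a stretch of the same extent. Within it 196 kb from 102651373 to 102846953 held no peak at all and contained MMP27, MMP8, MMP10, MMP1 and MMP3. MMP8 encodes the collagenase of neutrophils, MMP1 the interstitial collagenase, and MMP3 and MMP10 the stromelysins. MMP12, encoding the elastase of macrophages, had no peak within 1 kb, and its nearest H3K27ac peak lay 12274 bp away with a score of 30.9. MMP13, another collagenase gene, was counted for H3K27ac through 1 peak of 531 bp that lay 987 bp outside its span and scored 30.6, close to the list's minimum of 30. MMP3 had a peak of 358 bp (score 41.4) 3345 bp away, too far to be counted. For MMP1, MMP8, MMP10 and MMP27 the nearest H3K27ac peak was 40115 to 66326 bp from the gene.

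**Figure D3:**
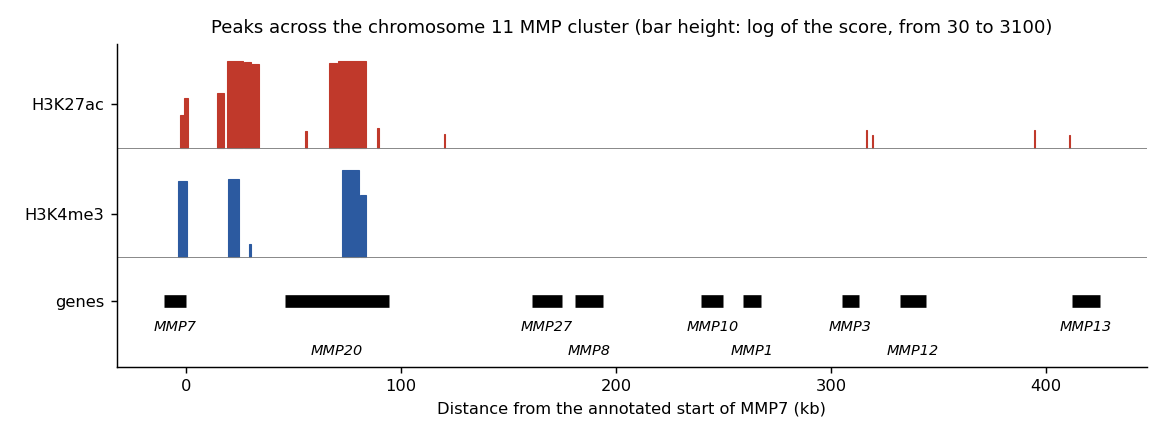
H3K27ac (top) and H3K4me3 (middle) peaks along the chromosome 11 MMP cluster and its 9 genes (bottom, black bars), by distance in kb from the MMP7 start. Bar height is the log of the peak score from 30 to 3100. Tall bars stand at MMP7, in the gap after it and inside MMP20, and the 7 genes from MMP27 to MMP13 have 5 short H3K27ac bars among or before them.

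Membrane-type MMPs are held at the cell surface, by a transmembrane helix in MMP14, MMP15, MMP16 and MMP24 and by a lipid anchor in MMP17 and MMP25. MMP15 (chromosome 16, 58025754 to 58046901) had both marks at its start, alone among the 3 genes of this class whose start is known. An H3K4me3 peak of 3695 bp (score 3100) and an H3K27ac peak of 2403 bp (score 194) lay over its start. Another 5 H3K27ac peaks followed inside the gene 3276 to 11954 bp downstream, with scores of 37.6 to 558, and none of them overlapped H3K4me3. MMP14, whose product activates pro-MMP2 and degrades collagen directly, had almost nothing. Its single peak was H3K4me3 of 442 bp with a score of 42.3, 589 bp inside the gene (chromosome 14, 22836585 to 22847758), and the nearest H3K27ac peak lay 5899 bp away.

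MMP16 (chromosome 8, 88032011 to 88327483) had an H3K4me3 peak of 3646 bp (score 3100) over its higher-coordinate end without H3K27ac. Its 4 H3K27ac peaks lay far inside, the strongest of them 3612 bp wide with a score of 743. MMP17 (chromosome 12, 131828393 to 131851771) had 3 adjoining H3K4me3 peaks at its lower-coordinate end, with scores of 726 to 1656, and 1 H3K27ac peak with a score of 31.7. At MMP24 and MMP25 some marks lay within 1 kb of an end of another gene and others did not. At MMP24 (chromosome 20, 35226690 to 35276998) the start was bare, and the H3K27ac peak of score 1415 and the H3K4me3 peak of score 3100 at its far end lay also within 1 kb of an end of EIF6, MMP24OS and MMP24-AS1-EDEM2. A second pair, with no end of another gene within 1 kb, lay 40839 and 41598 bp downstream of the start. Its scores were 726 for H3K27ac and 45.3 for H3K4me3. At MMP25 (chromosome 16, 3046561 to 3060726) the peaks at the higher-coordinate end, scoring 1151 for H3K27ac and 3100 for H3K4me3, also touched LOC124900372 and MMP25-AS1. Those below its lower-coordinate end scored 432 for H3K27ac and 3100 for H3K4me3 and ended outside the span. No end of another gene lay within 1 kb of them.

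The 5 remaining MMP genes showed little H3K27ac. MMP2 and MMP9 encode the gelatinases, which cut denatured collagen and basement membrane collagen. MMP2 (chromosome 16, 55478830 to 55506691) had 1 H3K4me3 peak of 1026 bp with a score of 64.6, and MMP9 (chromosome 20, 46008908 to 46016561) had 2 with scores of 68.5 and 44.7. The nearest H3K27ac peaks were 50077 bp from MMP2 and 14011 bp from MMP9. MMP11, which encodes a stromelysin described in the stroma of breast carcinomas, was the single gene of this class with H3K27ac. Over its start (chromosome 22, 23772849) lay H3K4me3 of 1603 bp (score 1163) and an H3K27ac peak with a score of only 36.7. A second H3K27ac peak (score 45.6) ended just before the start, and another H3K27ac peak of score 66.3 lay 8308 bp downstream. MMP28, encoding epilysin, had 2 H3K4me3 peaks, of which that of score 1048 covered its higher-coordinate end and that of score 1213 also touched C17orf50. MMP19 had no peak within 1 kb, and peaks of both marks lay 3638 to 4540 bp away.

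The inhibitor genes differed in state. TIMP2, whose product both inhibits MMPs and takes part in the activation of pro-MMP2 by MMP14, had an H3K4me3 peak of 3029 bp (score 3100) over its higher-coordinate end (chromosome 17, 78852977 to 78925387). It also had 6 H3K27ac peaks, of which those at that end scored 242 and 244 and the other 4 scored 35.5 to 58.1. TIMP4 (chromosome 3, 12153068 to 12158912) had H3K4me3 of 1048 bp over its start with a score of 184, and its nearest H3K27ac peak lay 1217 bp from the gene with a score of 39.8. TIMP3, whose product binds to the matrix and also inhibits ADAM17, had neither mark over its 61337 bp (chromosome 22, 32801705 to 32863041). The nearest H3K27ac peak lay 131775 bp from it and the nearest H3K4me3 peak 324445 bp.

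ADAM genes had H3K27ac at every member and H3K4me3 at all but ADAM28. ADAM10 and ADAM17 encode the main sheddases; ADAM10 cuts Notch receptors and ADAM17 releases TNF from its membrane precursor. The ADAM17 start (chromosome 2, 9555830) lay under H3K27ac of 4244 bp (score 2582) and H3K4me3 of 6637 bp (score 3100). At the ADAM10 start (chromosome 15, 58749707) H3K27ac spanned 2914 bp (score 2255) and H3K4me3 3942 bp (score 3100). ADAM10 held a further 10 H3K27ac peaks, 9 of them in the gene 18565 to 145040 bp downstream of the start with scores of 30.6 to 123 and none overlapping H3K4me3.

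The widest H3K27ac peaks of the ADAM class were at ADAM9 and ADAM15. ADAM9 (chromosome 8, 38996973 to 39105261) had 10335 bp of H3K27ac and 11273 bp of H3K4me3, each with a score of 3100, in peaks that also touched TM2D2. Near its other end an H3K27ac peak of 3034 bp scored 1614 and the H3K4me3 peak under it scored 173. At ADAM15 (chromosome 1, 155051316 to 155062775) all 4 peaks lay at ends shared with DCST1 or with EFNA4. The pair over the start measured 7987 bp of H3K27ac and 6162 bp of H3K4me3, each with a score of 3100, and 69.6% of the short gene was under H3K27ac.

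ADAM12 and ADAM19, which encode the meltrins, had H3K4me3 scores of 3100 at their starts and their highest H3K27ac scores deep inside the gene. ADAM12 (chromosome 10, 126012391 to 126388477) had 2764 bp of H3K4me3 (score 3100) and 1687 bp of H3K27ac (score 307) over the start. Its strongest H3K27ac peak, 2915 bp with a score of 1482, lay 304479 bp downstream on an H3K4me3 peak of score 180. ADAM19 (chromosome 5, 157477304 to 157575775) had 1906 bp of H3K4me3 (score 3100) with an H3K27ac score of only 49.1 at the start, and its strongest H3K27ac peak, with a score of 966, lay 62330 bp downstream.

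ADAM8, which encodes a protease first known from leukocytes, was marked at its far end only. There H3K27ac of 1316 bp (score 1020.3) lay 401 bp outside the span and H3K4me3 of 2182 bp (score 3100) lay over the lower-coordinate end of the span (chromosome 10, 133262423 to 133276868). The H3K27ac peak lay 14846 bp from the start, and no end of another annotated gene fell within 1 kb of either peak. ADAM28 (chromosome 8, 24294069 to 24359014), known from lymphocytes, had a single H3K27ac peak of 527 bp with a score of 60.4, and its nearest H3K4me3 peak lay 553469 bp away.

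Among the ADAMTS and ADAMTS-like genes, H3K4me3 scored 2355 to 3100 at ADAMTS5, ADAMTS9, ADAMTS15 and ADAMTS16. H3K27ac there was absent or scored at most 65.4. Peaks in the windows of all protein-coding genes had median scores of 1746 for H3K4me3 and 76.3 for H3K27ac. The other genes of the class differed from these, as given below. ADAMTS1, which encodes a protease of the proteoglycans aggrecan and versican, had the highest H3K27ac score among the 7 proteases of this class. H3K4me3 of 5146 bp (score 3100) covered its higher-coordinate end (chromosome 21, 26835755 to 26845409), with H3K27ac peaks of 3112 bp (score 650.1) and 1146 bp (score 422) on it. The neighbouring aggrecanase gene ADAMTS5 (chromosome 21, 26917922 to 26967088) had H3K4me3 of 2626 bp (score 2950.4), shared with LOC124905050, and its nearest H3K27ac peak lay 59974 bp away. ADAMTS15 had H3K4me3 of 2351 bp (score 3100), and its nearest H3K27ac peak lay 40835 bp away.

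ADAMTS9 had H3K4me3 of 4417 bp (score 3100), which also touched ADAMTS9-AS2, and H3K27ac scores of 34.6 and 39.2. ADAMTS16 had H3K4me3 of score 2355 at its lower-coordinate end and 1 H3K27ac peak of score 65.4 inside. That H3K4me3 peak also lay within 1 kb of an end of ADAMTS16-AS1 and ADAMTS16-DT. ADAMTS12, whose product cuts a cartilage matrix protein, had a bare start (chromosome 5, 33891990). Its strongest H3K27ac peak (score 195) lay 281471 bp downstream, on H3K4me3 of score 70.3. The aggrecanase gene ADAMTS4 was counted with neither mark, but an H3K27ac peak of score 644 and an H3K4me3 peak of score 3100 lay 1671 and 1726 bp from its span (chromosome 1, 161184302 to 161199054), just outside the window.

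ADAMTSL4 encodes a protein that resembles ADAMTS proteases without being a protease and binds fibrillin microfibrils. It had the widest peaks of the 39 genes, with 29236 bp of H3K27ac and 27892 bp of H3K4me3, each with a score of 3100. These also covered MCL1, which encodes a survival protein of the BCL2 family, and reached 20729 bp (H3K27ac) and 20651 bp (H3K4me3) past the ADAMTSL4 span (chromosome 1, 150549408 to 150560937). Separate peaks lay over the ADAMTSL4 start, 4978 bp of H3K27ac with a score of 1554 and 3635 bp of H3K4me3 with a score of 3100, and they also touched LOC124904417. H3K27ac covered 99.2% of the ADAMTSL4 span.

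In total the windows of the 39 genes held 83 H3K27ac peaks and 46 H3K4me3 peaks. Of the H3K27ac peaks 35 (42.2%, exact Clopper-Pearson 95% interval 31.4 to 53.5) overlapped H3K4me3, close to the 43.1% of 47303 H3K27ac peaks in the windows of all protein-coding genes. Of the H3K4me3 peaks 30 (65.2%, 49.8 to 78.6) overlapped H3K27ac by at least 1 bp, against 74.8% of 23733 in all windows. The order turned round with 50% of the H3K4me3 peak covered, at 65.2% of member peaks and 58.7% of those in all windows. Peaks of 1 gene depend on one another, so the true error is wider than these intervals. The 48 H3K27ac peaks without H3K4me3 were narrower and weaker in the median (676.5 bp, score 44.1) than the 35 on H3K4me3 (1799 bp, score 432). Of those 48 peaks, 45 lay more than 2.5 kb from either end of the gene. These medians and this count were taken for members only, and a difference from other genes was not tested.

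Among members with a known start, 12 of 56 H3K27ac peaks lay within 1 kb of it, and each of these overlapped H3K4me3. Another 34 lay more than 10 kb downstream, 9 of them in ADAM10 and 9 in ADAM12, and 26 of the 34 had no H3K4me3. H3K4me3 showed 12 of 24 peaks within 1 kb of the start and 10 more than 10 kb downstream, and each of those 10 lay on H3K27ac. Among those 10, the peaks over the far ends of ADAM15 and MMP24 also touched the 1 kb around an end of another protein-coding gene. The others did not. Peak positions were counted for members only, so whether they differ from those at other genes was not tested.

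**Figure D4:**
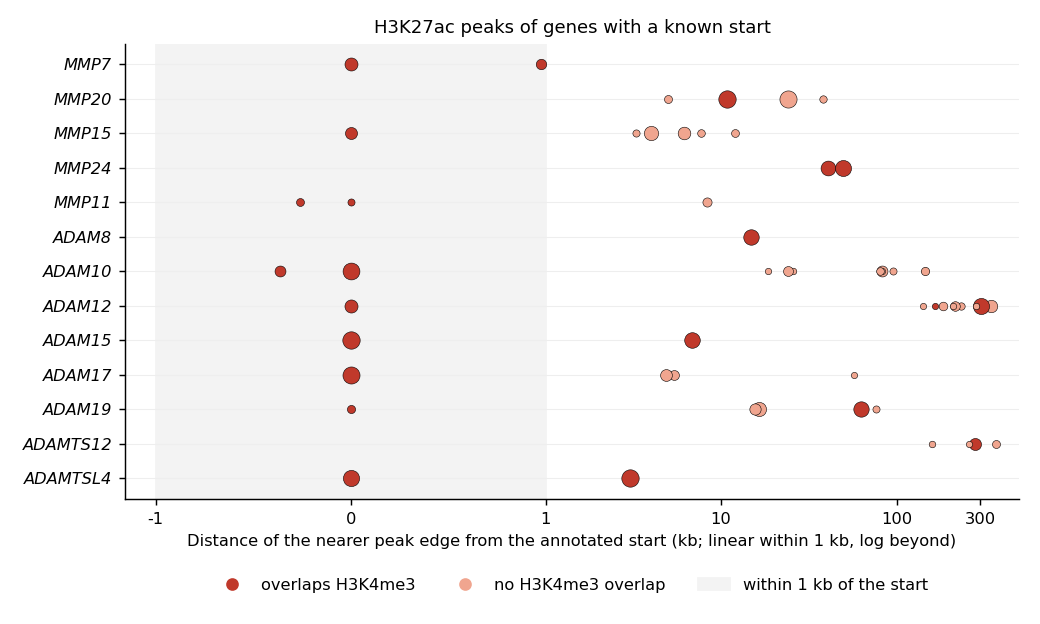
Position of each H3K27ac peak relative to the annotated start, in kb, for the 13 members with a known start and at least 1 H3K27ac peak (linear within 1 kb, log beyond). Larger circles have higher scores, dark circles overlap H3K4me3 and pale ones do not. The 12 peaks within 1 kb of a start are all dark, and MMP20, MMP24, ADAM8 and ADAMTS12 have none there.

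CpG content separated the marked from the unmarked starts only in part. The ratio of observed to expected CpG in the 300-base window was at least 0.6 in 12 of the 19 members (63.2%), against 65.8% of 15812 promoters. Of these 12, 8 had H3K27ac at the start (78.2% of all CpG-rich promoters) and 8 had H3K4me3 (92.5%). The same 8 genes had both marks, and the 4 without either were MMP24, TIMP3, ADAM8 and ADAMTS12, with ratios of 0.785, 0.788, 0.706 and 0.728. Of the 7 members with a lower ratio, 1 had H3K27ac (24.9% of such promoters), which was MMP7, and 3 had H3K4me3 (27.3%), which were MMP7, MMP14 and TIMP4. The 4 cluster genes without a mark at the start had the lowest ratios of all, from 0.162 to 0.245, and MMP7 had 0.424.

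**Figure D5:**
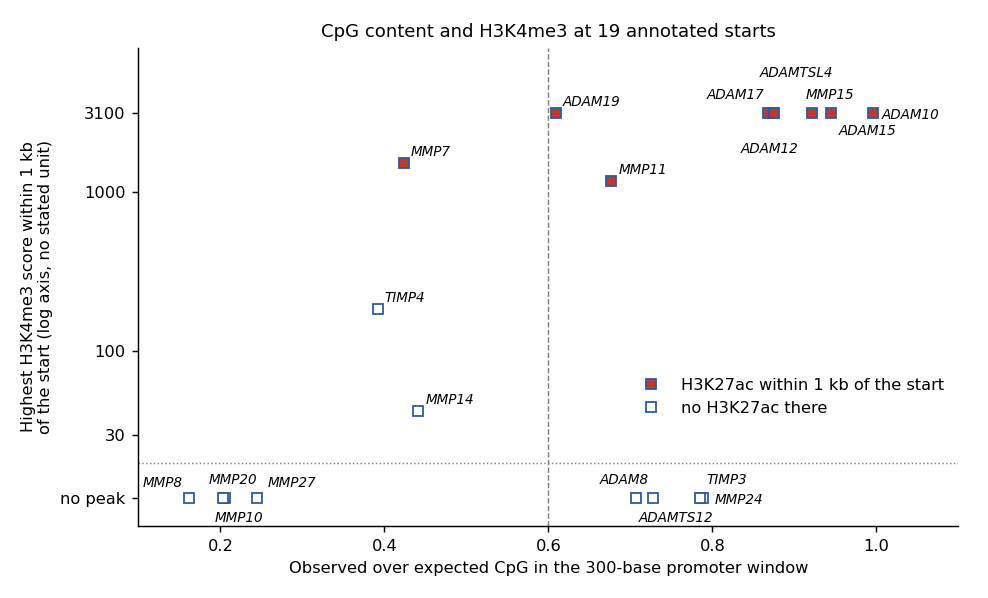
Highest H3K4me3 score within 1 kb of the start (log axis, no stated unit) against the observed over expected CpG of the 300-base promoter window for 19 members. Red filling marks starts with H3K27ac within 1 kb, and the dashed line is a ratio of 0.6. MMP7 is the one red square left of the line, and 4 genes right of it have no peak.

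Motifs in the promoter windows were counted on both strands. AP-1 motifs were present in 4 of 19 members (5.76% of all promoters), MMP7, MMP10, MMP20 and ADAMTS12, and TATA boxes in 4 (9.64%), MMP7, MMP8, MMP10 and MMP20. GC boxes were present in 13 of 19 (58.5%), the ETS motif AGGAAG in 6 (33.5%) and the RUNX motif TGTGGT in 2 (10.8%). Of the 4 genes with an AP-1 motif only MMP7 had a mark within 1 kb of its start. A match gives letters in a window, not a bound site.

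Regulators of these enzymes were marked about as often as other genes. In a list of 17 activators, inhibitors and partners, 13 had both marks (68.2% of all protein-coding genes) and 4 had neither (19.3%), namely PLG, PLAT, SERPINB2 and A2M. With scores of at least 100, 10 of the 17 had both (58.1% of all genes). FURIN, which removes the propeptide of membrane-type MMPs and ADAMs, had H3K27ac and H3K4me3 scores of 3227 and 3100. BSG, encoding the MMP inducer basigin, RHBDF1, encoding a cofactor of ADAM17, and TSPAN14, encoding a tetraspanin partner of ADAM10, each had 3100 for both marks. RECK, encoding a membrane-anchored MMP inhibitor, had 1008 for H3K27ac and 3100 for H3K4me3. PLAU, encoding urokinase, scored 74.9 for H3K27ac and 460.3 for H3K4me3. Its receptor gene, PLAUR, scored 58.7 for H3K27ac and 2511 for H3K4me3. Among the other marked genes of these 17, H3K27ac scored 42.1 at PCSK5, 207 at TSPAN15 and 224 at TSPAN5. It scored 479 at PCSK6, 1165 at RHBDF2 and 3100 at CD44.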

How the data were processed

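Chromatin of HCC1599 cells was cross-linked and fragmented by sonication and micrococcal nuclease, per the labels' protocols. Bowtie2 (no version), MACS 1.4 and the build hg38 are named in the submitters' processing notes. The authors deposited 1 peak list per mark with a score per peak; its unit is not stated in the sources used here, and no parameters are named. The input was not analysed here.

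Gene spans and starts were read from RefSeq tables of GRCh38.p14, of which the promoter table lists 250 bases before to 50 after each start. Positions count from 1. A peak belonged to a gene where it overlapped the span or 1 kb beside it by at least 1 bp. A peak was shared if it also overlapped the 1 kb around an end of another protein-coding gene. Observed over expected CpG was the CpG count times the window length over the product of C and G counts. Alternatives were scores of at least 50 (added after seeing the data) or 100, equal list lengths, no flank or 5 kb, peak midpoints, shared peaks left out, 50% of an H3K27ac peak covered, and start windows of 500 bp and 2.5 kb. All 39 members may be named, with full values for those with a peak and for the strongest, and the rarer states of the other lists. The members and lists were chosen with earlier results of these data known. The CpG ratio of 0.6, the run between MMP7 and MMP20, the marked genes named among the regulators, VWF, CD79A and KDR, and ADAMTS17, ADAMTSL1, ADAM22 and ADAMTS19 were chosen after their values were seen. An item of the regulator list is not reported here. The counting was tested on simulated data and differed from bedtools 2.31.1 at 0 genes. Python 3.11.15, numpy 2.4.6, pandas 2.3.3, scipy 1.17.1 and matplotlib 3.10.9 were used.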

Additional observations from a re-analysis of the deposited data

How the results depend on the processing

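Of 120 recomputed values, 111 were within 1.5 times the reported count (for the overlap share, within its interval) and 9 moved. For equal list lengths only the H3K27ac list was cut, so the H3K4me3 counts could not change there. They are among the 111. With scores of at least 100, genes with neither mark numbered 14 in place of 9, the MMP genes outside the cluster and membrane-type classes with H3K27ac 0 in place of 1 and with H3K4me3 2 in place of 4, and ADAMTS and ADAMTS-like genes with H3K27ac 3 in place of 5. With equal list lengths, H3K27ac was called at 0 of those MMP genes and 3 of those ADAMTS genes. With a flank of 5 kb it was called at 2 of the MMP genes in place of 1 and at 2 TIMPs in place of 1. The share of H3K27ac peaks overlapping H3K4me3 was 62.5% with scores of at least 100, in place of 42.2%. In the windows of all protein-coding genes it moved likewise, to 63.7% in place of 43.1%. The members that lost H3K27ac at a score of 100 were MMP11, MMP13, MMP17, ADAM28, ADAMTS9 and ADAMTS16, and those that lost H3K4me3 were MMP2, MMP9, MMP14 and ADAMTS12. Widening the flank to 5 kb added H3K27ac at MMP3, MMP19, TIMP4 and ADAMTS4 and H3K4me3 at MMP19 and ADAMTS4. No paired analysis was possible because each mark has 1 library and no result comes from a test. Read depth, copy number and the spread between repeat libraries are unknown, which limits what a missing peak can show.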

Other observations

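Of 22 other metalloprotease family genes, 14 had both marks (68.2% of all protein-coding genes), 2 H3K27ac only (5.17%), 3 H3K4me3 only (7.33%) and 3 neither (19.3%). ADAMTS17 and ADAMTSL1, both long genes, held 16 and 19 H3K27ac peaks with highest scores of 2710.5 and 572, and their highest H3K4me3 scores were 147 and 540.1. ADAM22 and ADAMTS19 each scored 3100 for H3K4me3, and their highest H3K27ac scores were 48.9 and 71.2. MMP21 and ADAMTS20 had H3K27ac only, with scores of 32.0 and 69.1. ADAMTS7, ADAMTS8 and ADAMTSL2 had H3K4me3 only, with scores of 3100, 1275 and 47.0. MMP26, ADAM33 and ADAMDEC1 had neither mark. ADAMTS8 lies on chromosome 11 at 130404923 to 130428609, next to ADAMTS15, and like it had H3K4me3 without H3K27ac.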
